A study of Mus musculus with 6 samples.

Results

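Apolipoproteins are the protein components of the particles that carry lipid in blood, and most of them are made by hepatocytes. This account describes 10 mouse apolipoprotein genes in liver, Apoa1, Apoa2, Apoa4, Apoa5, Apob, Apoc1, Apoc2, Apoc3, Apoe and Apoh, out of 35082 genes measured. They were taken by name, and each was measured as the sum of the estimated read counts of its annotated transcripts, of which there were 44. Liver RNA was sequenced from 6 male mice that began a high-fat diet when 8 weeks old and ate it for 20 weeks, a regimen used to produce steatotic liver disease. The 3 controls, here C1 to C3 by replicate number, were homozygous for a floxed G3bp1 allele (G3BP1f/f), with no Cre listed. The 3 mice of the other group, K1 to K3, had these alleles too and the albumin-driven Cre (Alb-cre; G3BP1f/f). This Cre acts in hepatocytes, and liver cells in which it is not active keep the gene. G3BP1 is an RNA-binding protein of stress granules, and the comparison asks how liver transcripts differ when hepatocytes lack it on this diet.

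The libraries held 20899135 to 21750007 estimated counts. G3bp1 measured 44.1, 34.8 and 40.5 CPM (TMM-scaled counts, relative to library size) in C1 to C3 and 44.0, 30.0 and 31.5 in the other group, so its level did not set the groups apart, and the second group is called knockout-labelled. Which exons Cre removes is not stated in the labels, and reads from the rest of the gene or from other cells would still be counted. Of 10 hepatocyte markers 9 were in the files and none was at 0 in any library. Their summed CPM ran from 82712 to 116743 in controls and from 60780 to 101573 in the knockout-labelled libraries, lowest in K3, and the part of this in the values below was not tested. The effective lengths of the shortest transcripts show that K1 was run with a fragment length setting unlike that of the other 5 libraries. For Apoc1-201, the main transcript of the shortest member, its effective length was 182 bases, against 179 to 194 in the other libraries. For the 271-base Apoc1-203 the effective length was 29.6 bases in K1, against 59.4 to 64.7 in the others.

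As background, apolipoproteins fall into classes by what they do on a particle. Apolipoprotein B is the large, non-exchangeable scaffold of very low and low density lipoproteins, and apolipoproteins A-I and A-II are the main proteins of high density lipoprotein. The smaller exchangeable proteins move between particles and set how fast triglyceride is removed: C-II activates lipoprotein lipase and A-V enhances its action, whereas C-III and C-I hold back lipolysis and uptake. Apolipoprotein E is the ligand by which remnants are cleared through hepatic receptors. In the mouse, Apoa1, Apoc3, Apoa4 and Apoa5 are neighbours on chromosome 9 and Apoe, Apoc1 and Apoc2 are neighbours on chromosome 7.

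The sequences that separate the transcripts discussed here are shown first, because single libraries stood apart in which transcript their reads were assigned to. Each run holds the 15 bases before and the 15 bases after one exon boundary on the transcribed strand, read from GENCODE M21 (GRCm38), with the bases after the boundary in capitals. In Apoe the transcripts Apoe-209 and Apoe-206 differ in exon 1, and Apoe-202 skips a stretch of the last exon that Apoe-209 reads through.
Apoe-209, end of exon 1: cacccagggaccttgACTGGCCAATCACAA
Apoe-206, end of exon 1: tttcggaaggagctgACTGGCCAATCACAA
Apoe-209, within the last exon: ctctggtggagcaagGTCGCCAGCGCACTG
Apoe-202, same position: ctctggtggagcaagGTGGCCCTGTCTCAA
The stretch that Apoe-202 lacks is chr7:19696338-19696723 on the minus strand, 386 bases that begin with GT and end with AG in the transcript. In Apob the short transcript Apob-203 lies wholly within the exons of the full-length Apob-202 and skips chr12:8015083-8015872 on the plus strand, 790 bases that also begin with GT and end with AG.
Apob-202, within the last exon: gtctgatggtgaaagGTACATCAAAATTAA
Apob-203, same position: gtctgatggtgaaagGTCCCATATGCTTTT
In Apoc3 the transcript Apoc3-205 joins exon 1 to a later exon of Apoc3-201, leaving out the exon with the start codon. In Apoc2 the 2 transcripts with most counts differ in exon 1.
Apoc3-201, end of exon 1: agctagctactccagGTACGTAGGTGCCAT
Apoc3-205, end of exon 1: agctagctactccagGAGCTGAAGAGGTAG
Apoc2-201, end of exon 1: tgccactacattcagGTCCCAGACAGCATG
Apoc2-202, end of exon 1: aatcagtgctacacaGTCCCAGACAGCATG
In Apoa2 the 3 leading transcripts use neighbouring acceptor sites for exon 2, so that they differ by a few bases there.
Apoa2-201, end of exon 1: tgcagcacagaatcgCAGCACTGTTCCTAG
Apoa2-204, end of exon 1: tgcagcacagaatcgCACTGTTCCTAGGCC
Apoa2-203, end of exon 1: tgcagcacagaatcgGCCATAGTCTGCCAT

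All 10 genes passed the filter on low counts, and none passed the threshold of 0.05 on the adjusted p of edgeR's quasi-likelihood test. The test called 0 of 10 apolipoprotein genes and 0 of all 12497 genes tested (0% called), with 4.55% of all genes and 0 members at an unadjusted p under 0.05. Without K1 the test put 4 members under an unadjusted p of 0.05, Apoa2 (0.046), Apoc1 (0.015), Apoc2 (0.035) and Apoc3 (0.013), with adjusted p from 0.20 to 0.31. The 4.55% is from the fit on all 6 libraries and is no background for these 4. The share of all genes under 0.05 without K1 was not counted. These 4 are the members with transcripts up to 800 bases. Genes of that length as a class had a median deviation of -0.34 in K2 and -0.62 in K3 (log2). The part of this in the 4 values was not tested. DESeq2 gave Apoa2 an unadjusted p of 0.019 (adjusted p = 0.91). It called 10 genes among the 13854 it gave an adjusted p (0.0722%), none of them a member. The groups overlapped for every member, where they did not for 9.34% of all genes. Of the members 8 lay below 0 in the knockout-labelled libraries, as did 48.4% of all genes and 78 of the 100 most abundant genes tested. Their median log2 difference was -0.33, against 0.014 over all genes and -0.21 over the 100 most abundant. With library totals in place of the TMM factors, 7 of 10 members lay below 0 with a median of -0.12. That scaling put the median of all genes at 0.27. In the deposited TPM 4 of 10 members lay below 0 with a median of 0.059, where the median of all genes was 0.22. The members' median was -0.79 without K1, -0.069 without K3, -0.14 without C3 and -0.52 without C2. With a term that sets C2, K2 and K3 apart from C1, C3 and K1, a division known from earlier results, it was -0.17.

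Together the 10 genes took a large part of all sequenced RNA. They held 9.18%, 6.33% and 10.2% of counts in C1 to C3 and 9.87%, 7.29% and 6.18% in K1 to K3. The groups overlapped, and their means were 8.56 ± 2.00% for controls and 7.78 ± 1.89% for K1 to K3 (SD, n = 3 each, exact permutation p = 0.70, two-sided, where 3 against 3 cannot go below 0.10). Without C3 or K3 the difference of the means turned to 0.030 and 0.021 percentage points. Mitochondrially encoded genes held 9.16% and 10.1% of counts in K2 and K3 and 7.20% to 7.62% in the other 4 libraries. With them left out of the total the difference of the 10 genes' share was -0.71 percentage points in place of -0.78. Apoe alone held 2.43% to 4.22% of counts and Apoa2 1.23% to 2.79%.

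Per transcript length, Apoa2 was the most abundant member. In the deposited TPM the controls averaged 69295 ± 16977 for Apoa2, 34822 ± 6324 for Apoc1 and 27432 ± 6245 for Apoe (SD, n = 3). Apoc3 followed at 10102 ± 3405 TPM and Apoa1 at 9867 ± 1256 TPM. The 5 others were at 1712 ± 83.7 TPM for Apoh, 983 ± 545 for Apoc2, 516 ± 180 for Apob, 329 ± 80.1 for Apoa5 and 222 ± 279 for Apoa4. The 3 control values of neighbours in this order overlapped for Apoc1 and Apoe, for Apoc3 and Apoa1, for Apob and Apoa5 and for Apoa5 and Apoa4. They were apart for the other 5 neighbouring pairs, by little for Apoh over Apoc2 and for Apoc2 over Apob. In the knockout-labelled libraries the means kept this order except that Apoe (31177 TPM) stood above Apoc1 (30644 TPM) and Apoa1 (11192 TPM) above Apoc3 (8799 TPM). In CPM per kilobase, with 1 length per gene in every library, the control means already had Apoe above Apoc1 (30742 against 22553). They also had Apoa1 above Apoc3 (11045 against 7583) and Apoa5 above Apob (428 against 305). The means of K1 to K3 had the same order for these pairs, so their order in TPM depends on the measure.

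**Figure D1:**
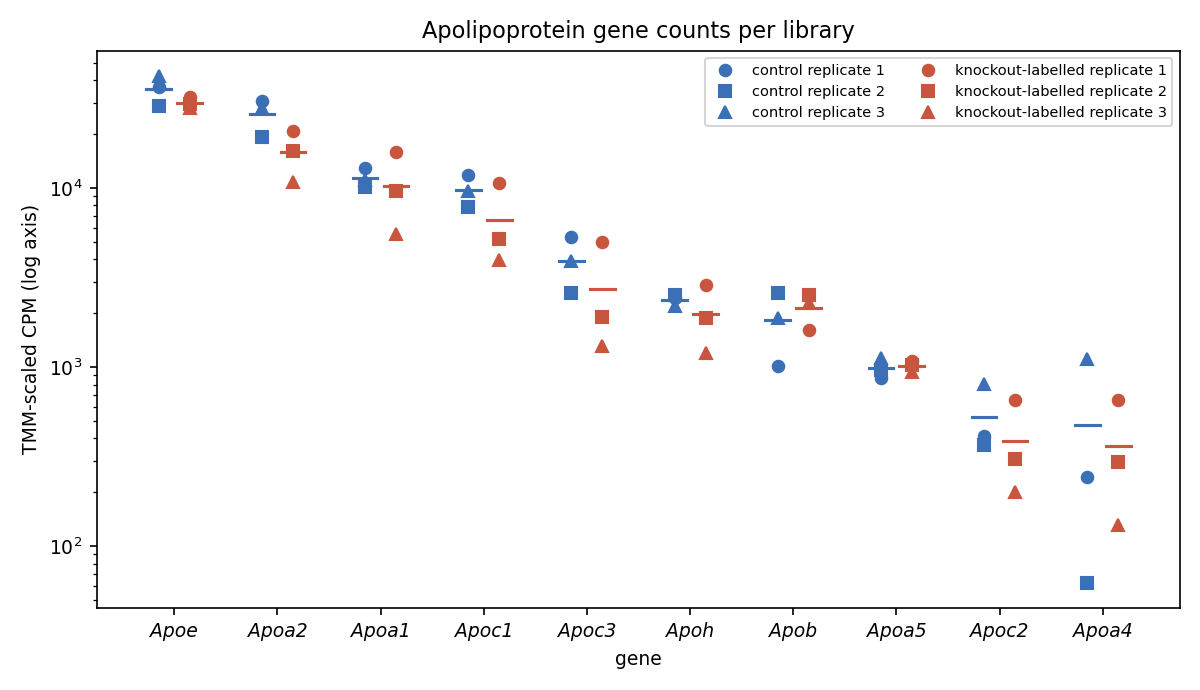
TMM-scaled CPM (log axis) of the 10 genes in each of the 6 libraries; points are libraries, marked by replicate number, and bars are group means. The groups overlap for every gene, and Apoa4 has the widest range, from 62.8 to 1114 CPM.

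Of the structural proteins, Apob, the scaffold of very low density lipoprotein (chromosome 12, 7977648 to 8016835, plus strand), measured 1019, 2580 and 1879 CPM in C1 to C3 and 1608, 2535 and 2280 CPM in K1 to K3. C1 was the lowest library and C2 the highest. On the log2 scale the difference was 0.23 (standard error, SE, 0.39), with a 95% interval of -0.66 to 1.12 (edgeR adjusted p = 0.94), and it was -0.061 without C1.

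Apoa1, the main protein of high density lipoprotein (chromosome 9, 46228580 to 46230466, plus strand), measured 12999, 10141 and 11132 CPM in controls and 15825, 9669 and 5525 CPM in K1 to K3. The knockout-labelled group held both the highest and the lowest library, a 2.86-fold range. Its log2 difference was -0.14 (SE 0.44, interval -1.14 to 0.86, edgeR adjusted p = 0.96), and it lay above 0 in 4 fits: 0.10 with library totals, 0.10 in TPM, 0.11 with the length and GC trend removed and 0.16 without K3.

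Apoa2, the second protein of that particle (chromosome 1, 171225054 to 171226379, plus strand), had the smallest p of the members. It measured 30491, 19395 and 27927 CPM in C1 to C3 and 20927, 16047 and 10844 CPM in K1 to K3. C2 lay below K1, so the groups overlapped. The log2 difference was -0.70 (SE 0.41, interval -1.64 to 0.23, edgeR unadjusted p = 0.12, adjusted p = 0.84). Once the trend of every library over length and GC content was taken out, the difference was -0.21, and it was -0.95 without K1 and -0.49 without K3. The 3 genes whose log2 CPM followed Apoa2 most closely over the 6 libraries were Rbx1, Zdhhc4 and 1810022K09Rik, each with Pearson r = 0.99, a description over 6 libraries that share their scaling.

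The windows ahead of the first annotated base of Apoa2 and Apob are shown as an example of 2 genes that varied in opposite directions over the libraries (Pearson r = -0.69 over 6 libraries, a description). Apob was more opposed to Apoc3 (r = -0.78) and Apoc1 (r = -0.73), for which no window was available. The windows shown are from RefSeq (GRCm38.p6), on the plus strand, with a TATAAA match in capitals.
Apoa2, chr1:171224804-171225053: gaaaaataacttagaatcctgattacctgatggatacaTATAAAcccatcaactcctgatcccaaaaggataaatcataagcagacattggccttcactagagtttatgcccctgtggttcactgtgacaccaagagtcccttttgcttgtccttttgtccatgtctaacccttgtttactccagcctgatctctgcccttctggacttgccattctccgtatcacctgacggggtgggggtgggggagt
Apob, chr12:7977427-7977647: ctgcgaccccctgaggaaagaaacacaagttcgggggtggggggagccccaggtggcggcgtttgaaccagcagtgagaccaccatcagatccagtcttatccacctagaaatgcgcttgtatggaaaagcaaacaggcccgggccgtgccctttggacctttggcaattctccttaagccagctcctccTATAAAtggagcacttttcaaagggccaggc
TATAAA, searched on the gene's own strand in the 250 bases before each RefSeq start, was in 4 of the 8 members with a window (Apoa2, Apoa5, Apob and Apoe) and in 8.94% of 27025 genes. AGGTCA, a nuclear receptor half-site searched on both strands, was in 3 of 8 members (Apoa2, Apoc2 and Apoh) and 15.8% of genes. The AGGTCA match of Apoa2 lies outside the run printed here, in a window at another annotated start. GTTAAT, also searched on both strands, was in 2 of 8 members (Apoc2 and Apoe) and 7.49% of genes. A match is a description of the letters and not a site.

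The genes that set lipolysis fell into those with short transcripts, which lay below 0, and Apoa5, which did not. Apoc2, the lipoprotein lipase activator (chromosome 7, 19671579 to 19677941, minus strand), measured 412, 367 and 811 CPM in controls and 657, 308 and 201 CPM in K1 to K3. C3 and K1 were the high libraries. Its log2 difference was -0.45 (SE 0.48, edgeR adjusted p = 0.90), and it was 0.00034 without C3, -1.06 without K1 and -0.14 without K3. Apoc2 shares 646 exon bases on the same strand with Gm44805, which held 228 to 624 counts against 4802 to 17016 for Apoc2, so some reads could belong to either gene.

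Apoc3, an inhibitor of triglyceride clearance (chromosome 9, 46232933 to 46235636, minus strand), measured 5329, 2581 and 3908 CPM in controls and 5030, 1901 and 1311 CPM in K1 to K3. K2 and K3 were below every control and K1 was above 2 of the 3. Its log2 difference was -0.52 (SE 0.53, edgeR adjusted p = 0.89), and it was -1.30 without K1, -0.19 without K3, -0.24 without C1, -0.31 without K2 and -0.17 with the length and GC trend removed. Apoc1, which also slows remnant uptake (chromosome 7, 19689481 to 19692660, minus strand), had the same pattern with 11841, 7825 and 9616 CPM in controls and 10650, 5210 and 3981 CPM in the knockout-labelled libraries. Its log2 difference was -0.56 (SE 0.44, edgeR adjusted p = 0.86), and it was -1.09 without K1, -0.30 without K3 and -0.096 with the trend removed. Apoc1 and Apoc3, which lie on different chromosomes, were the closest of the 45 pairs of members over the 6 libraries (Pearson r = 0.99), the most negative pair was Apoc3 with Apob (r = -0.78) and the weakest Apoa2 with Apoa5 (r = 0.087). These are descriptions, since all genes of a library share its scaling.

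Apoa5, which raises triglyceride clearance (chromosome 9, 46268633 to 46271919, plus strand), had the narrowest range of the members in TMM-scaled CPM, though not in TPM. It measured 865, 963 and 1130 CPM in controls and 1081, 1026 and 940 CPM in the knockout-labelled libraries, a 1.31-fold range over all 6, whereas its TPM ran from 264 to 621. The difference on the log2 scale was 0.043 (SE 0.24, interval -0.52 to 0.60, edgeR adjusted p = 0.98). It was -0.044 without C1, -0.0071 without K1 and -0.034 with the length and GC trend removed. In the deposited TPM, whose mean was 329 ± 80.1 in controls and 551 ± 121 over K1 to K3, the difference was 0.74 (limma on log2(TPM + 1), unadjusted p = 0.038, adjusted p = 0.40). The median of all genes in that fit was 0.22. In K2 and K3, 29.4% and 33.0% of the gene's TPM was on the 358-base Apoa5-206, from 555 and 623 counts. Library totals gave 0.29 for Apoa5, where the median of all genes was 0.27.

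Apoe, the ligand of remnant receptors (chromosome 7, 19696109 to 19699188, minus strand), had the most counts of any member. It measured 36513, 28902 and 42229 CPM in controls and 32372, 29545 and 28054 CPM in K1 to K3. The knockout-labelled values lay close together, and the controls reached both higher and, with C2, about as low. The log2 difference was -0.26 (SE 0.37, interval -1.11 to 0.60, edgeR adjusted p = 0.92), turning to 0.19 in TPM and 0.079 with the length and GC trend removed. Macrophages also express Apoe. The summed CPM of 11 Kupffer cell and macrophage markers was 259, 381 and 811 in C1 to C3 and 368, 259 and 319 in the knockout-labelled libraries, with none of the 11 at 0. The sum was highest in C3, the library with the highest Apoe, but the other libraries did not keep a common order. C2 had a sum of 381 with 28902 CPM of Apoe, and C1 had 259 with 36513 CPM. On the log2 scale all 11 lay below 0 (median -0.61), and so did all 5 red blood cell markers (median -0.97). The part of these cells in the Apoe values was not tested. In bulk tissue fewer cells of a type and less RNA per cell cannot be told apart.

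Apoa4, a lipid-responsive protein of chylomicrons and high density lipoprotein (chromosome 9, 46240696 to 46243459, plus strand), was the most variable member. It measured 243, 62.8 and 1114 CPM in C1 to C3 and 659, 294 and 132 CPM in K1 to K3. The lowest and the highest library were both controls and differed 17.8-fold. Apoa4 had a log2 difference of -0.39 with an interval of -2.50 to 1.73 (SE 0.92, edgeR adjusted p = 0.95). Its direction was set by single libraries: the difference was 1.24 without C3 and 0.01 without K3. It also lay above 0 in limma voom (0.21), in TPM (0.54), with the term for C2, K2 and K3 (0.86) and with the replicate number as a block (0.50). Apoa4 is also made in intestine. Of 7 intestinal epithelium markers Cdh17 and Sis were at 0 counts in every library, 3 to 5 were at 0 in each library and 2 passed the filter on low counts. The summed CPM of the list, which rests on few genes, was 267 to 320 in controls and 209 to 280 in the knockout-labelled libraries. The part of intestinal RNA in the Apoa4 values was not tested.

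Apoh, a phospholipid-binding plasma protein also called beta-2-glycoprotein I (chromosome 11, 108343354 to 108414396, plus strand), was even in controls at 2425, 2514 and 2197 CPM. The knockout-labelled libraries spread from above to below them, with 2861, 1887 and 1204 CPM in K1 to K3. Apoh had a log2 difference of -0.26 (SE 0.36, edgeR adjusted p = 0.92), and it was 0.015 in TPM. Without K3 it was -0.0034, without K1 -0.63 and with library totals -0.0050. Apoh followed Apoa1 over the 6 libraries (Pearson r = 0.95, a description). Both were highest in K1 and lowest in K3.

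**Figure D2:**
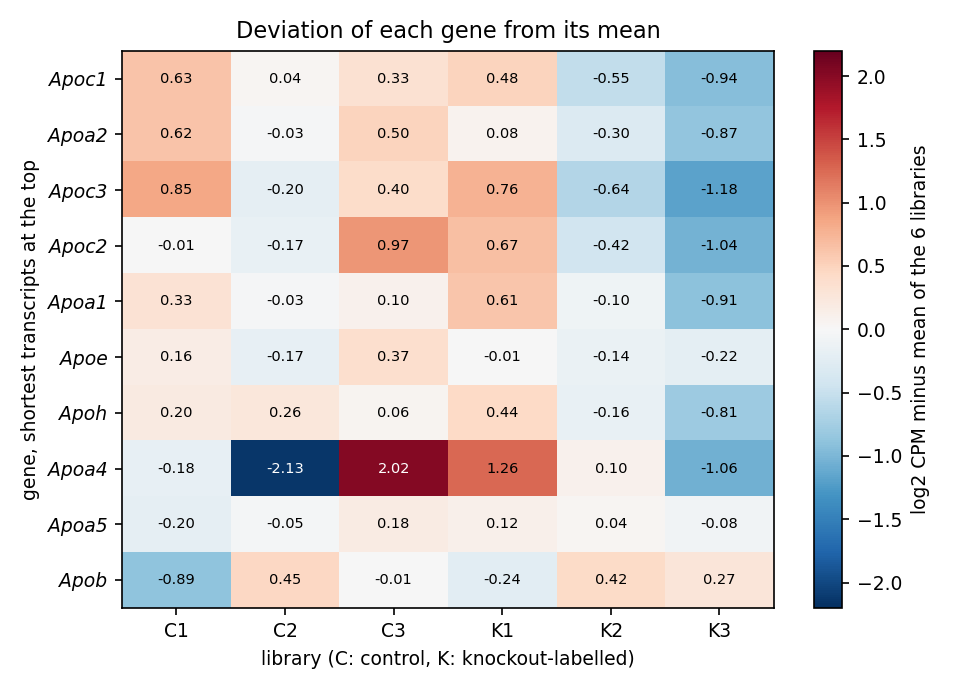
Log2 CPM of each gene minus its mean over the 6 libraries, with the genes ordered by count-weighted transcript length. K3 is the lowest library for 7 of the 10 genes, and Apob, at the bottom, has its low value in C1 instead.

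The differences of the members tended to rise with transcript length, though not in strict order. Apoa4 (1815 bases) at -0.39 lay below the shorter Apoa1, Apoe and Apoh. The 4 genes whose count-weighted transcripts were up to 800 bases long, Apoc1 (433 bases), Apoa2 (502), Apoc3 (519) and Apoc2 (625), all lay below 0 with a median log2 difference of -0.54. The 6 with longer transcripts had a median of -0.20, and the longest, Apoa5 (2301 bases) and Apob (5982 bases), were the 2 above 0. Across the 10 genes the log2 difference and log2 length had Pearson r = 0.91 and Spearman rho = 0.87, a description of genes that share the same 6 libraries. Among all genes tested, 471 of 532 with transcripts up to 800 bases lay below 0 with a median of -0.46, and 1451 of 1949 over 5000 bases lay above 0 with a median of 0.18. Short genes as a class deviated from their mean by 0.17 to 0.33 (log2, median) in C1, C2, C3 and K1, and by -0.34 and -0.62 in K2 and K3. With that trend over length and GC content taken out of every library, the median of the 4 short members was -0.14, that of the 6 longer ones 0.0024, and r across the 10 genes 0.21. Whether this trend between libraries goes with the genotype or with the handling of the samples cannot be told apart here.

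**Figure D3:**
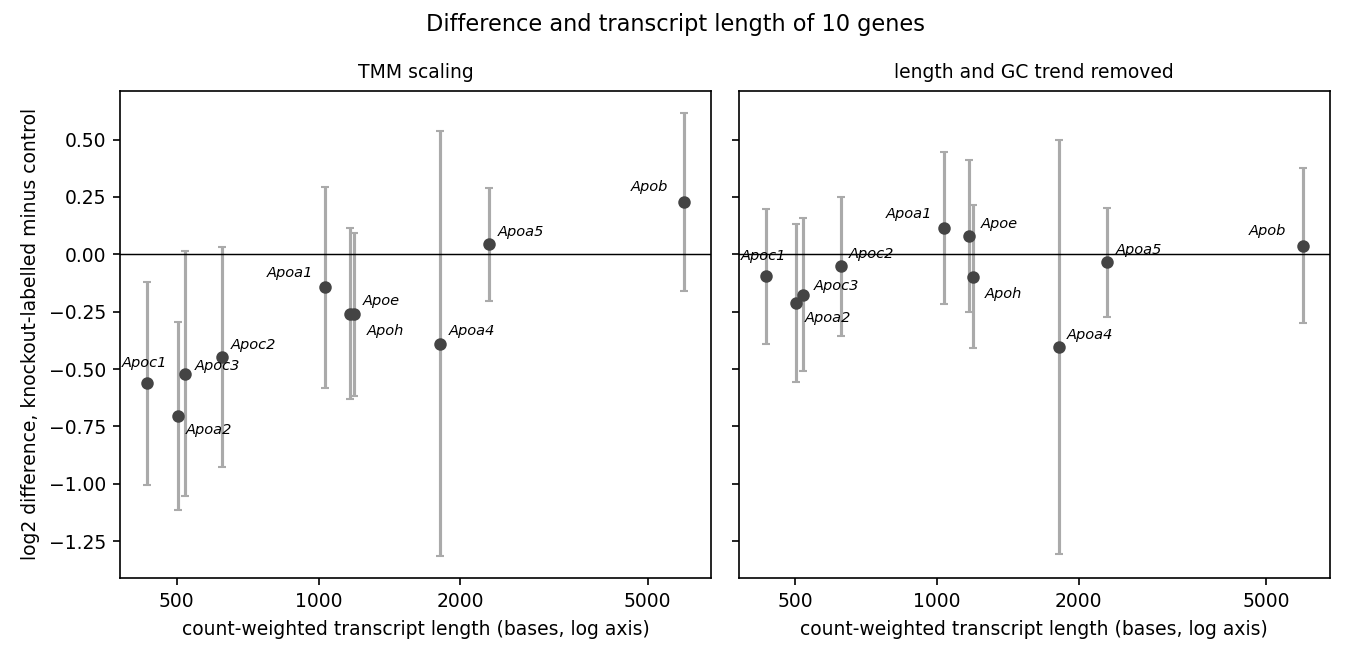
Log2 difference (knockout-labelled minus control) with its standard error against count-weighted transcript length (log axis), with TMM scaling on the left and with each library's length and GC trend removed on the right; each point is 1 gene. On the left the difference goes from -0.70 for Apoa2 to 0.23 for Apob, and on the right 9 of the 10 genes lie between -0.21 and 0.11, with Apoa4 at -0.40.

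The assignment of reads to transcripts set single libraries apart, with libraries of both groups on either side for Apoe-202 and Apoc2-202. Of the 44 transcripts 41 had counts and 32 passed the filter on low counts. The edgeR test called 0 of these 32 and 0 of all 22297 transcripts (0%). At an unadjusted p under 0.05 there were 2, against 2.8% of all transcripts: Apoa2-202 (log2 difference -1.51, SE 0.37, unadjusted p = 0.0074) and Apoc1-202 (-0.55, SE 0.19, unadjusted p = 0.029), both with an edgeR adjusted p of 1.00. For 5 of the 32 the groups were apart without overlap, all 5 lower in the knockout-labelled libraries, against 8.3% of all transcripts in either direction. These were Apoa2-202 (458 bases), Apoa2-204 (518), Apoc1-202 (532), Apoc3-202 (453) and Apoe-209 (1104), chosen for naming after their values were seen. Among all 532 genes tested with transcripts up to 800 bases, the groups were apart for 83 that were lower and 4 that were higher. The share among short transcripts was not counted. Apoc3-202 held only 15.4 to 34.1 counts.

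In Apoe, 3 transcripts shared nearly all counts. Apoe-209 held 81.4%, 68.9% and 67.8% of the gene's counts in C1 to C3 and 33.1%, 63.0% and 62.7% in K1 to K3. Every knockout-labelled library was below every control, with means of 72.7 ± 7.55% in controls and 52.9 ± 17.2% in the others (a difference of -19.7 percentage points, SD, n = 3 each, exact permutation p = 0.10, the smallest 3 against 3 can give, adjusted p = 0.45 over the 9 members with 2 or more transcripts). In K1 the remainder was on Apoe-206, with 66.7% against 15.9% to 32.1% in the other 5 libraries. K1 is also the library with the unlike fragment length setting, and the part of that setting in its shares was not tested. Without K1 the difference was -9.83 percentage points.

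Apoe-202, which GENCODE lists as a processed transcript, took a part of the remainder in the other 2 knockout-labelled libraries and in 1 control. Apoe-206 held 21.8% in C2, 15.9% in K2 and 18.1% in K3. Apoe-202 held 47470 counts in C2 and 136966 and 125992 in K2 and K3, or 8.99%, 20.5% and 18.8% of the gene. In the other 3 libraries it held 5.12, 7.04 and 6.03 counts out of 685830 to 886461 for the gene. These 2 sets of libraries hold both groups, and its log2 difference of 2.13 had an SE of 3.49 (edgeR adjusted p = 1.00). K2 and K3 had counts on 36.3% and 37.8% of all transcripts in the files, whereas C2, at 30.2%, was the lowest of the other 4.

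In Apob most estimated counts were assigned to the 3′ transcript Apob-203 of 2174 bases. Of its bases 100% lie within Apob-202, so apart from reads across its skipped stretch, reads of Apob-203 fit Apob-202 too. These shares are therefore assignments of reads and not a measure of how much short Apob mRNA the liver held. The full-length Apob-202 of 13934 bases held 8.65%, 32.6% and 20.4% of the gene's counts in C1 to C3 and 11.8%, 46.4% and 48.5% in K1 to K3. K2 and K3 were the highest and C1 the lowest, and the groups overlapped through K1. The share of Apob-203 averaged 79.4 ± 12.0% in controls against 64.4 ± 20.6% over K1 to K3 (SD, n = 3 each, exact permutation p = 0.30, adjusted p = 0.68). This difference of -15.0 percentage points was -26.9 without K1, -8.54 without K3, -9.60 without K2, -9.05 without C1 and -4.38 by TPM. Genes over 5000 bases as a class were also higher in K2 and K3, with a median deviation of 0.15 and 0.18 (log2) against -0.12 to -0.028 in the other 4. The part of this difference between libraries in the Apob values was not tested. Apob-203 had 17492 to 32860 counts and a log2 difference of -0.066, and Apob-202 had 1657 to 26588 counts and a log2 difference of 0.92 (SE 0.99), so of the 2 only the long transcript lay above 0.

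**Figure D4:**
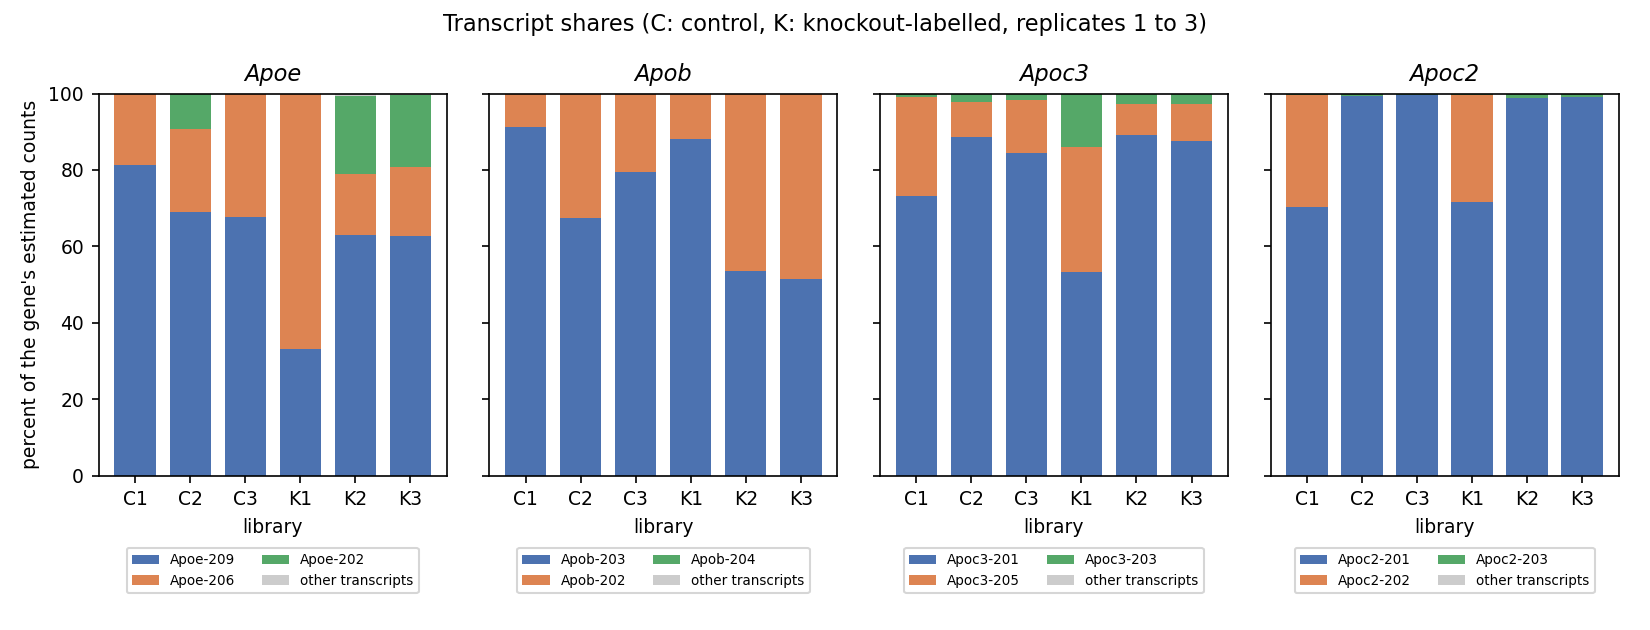
Percent of each gene's estimated counts on its 3 leading transcripts and on all others, per library, for Apoe, Apob, Apoc3 and Apoc2; bars add to 100%. Apoe-202 appears in C2, K2 and K3, Apoc2-202 in C1 and K1, and the full-length Apob-202 is largest in K2 and K3.

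In Apoc2 and Apoc3 the same 2 libraries, 1 of each group, stood apart. Apoc2-202 held 2261 counts in C1 and 4285 in K1, which was 29.2% and 28.2% of the gene, and it was listed at 0 in the other 4. Apoc3-205, which lacks the exon with the start codon, held 25.8%, 9.33% and 13.9% of Apoc3 in controls and 32.9%, 8.04% and 9.55% in K1 to K3, again highest in these 2 libraries. Apoc3-203 held 13.8% in K1 and 0.98% to 2.78% elsewhere. The part of the fragment length setting of K1 in this was not tested either. The shares of the leading transcripts Apoc2-201 (89.7 ± 16.8% in C1 to C3, 89.9 ± 15.9% in K1 to K3) and Apoc3-201 (82.1 ± 7.95% and 76.7 ± 20.3%, SD, n = 3 each) had exact permutation p of 1.00 and 0.90.

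Of the other members all but Apoa5 kept nearly all counts on 1 transcript or, for Apoa2, on a mix that varied little. Apoa4 had a single transcript, and Apoh-201 held all but at most 1.73 counts. Apoc1-201 held 98.5% to 99.3% in every library. Apoa1-201 held 99.9% in each control and 99.9%, 99.7% and 99.8% in K1 to K3, lower in every knockout-labelled library than in every control by -0.14 percentage points on average (exact permutation p = 0.10, adjusted p = 0.45). In Apoa2 the share of Apoa2-201 ran from 51.7% to 56.99% and that of Apoa2-204 from 40.2% to 46.0%. Apoa5-201 held 99.5%, 95.2% and 97.3% in controls and 96.9%, 88.8% and 85.5% in K1 to K3, a difference of -6.96 percentage points (exact permutation p = 0.20, adjusted p = 0.60). By TPM the difference was -24.1 points, with 29.4% and 33.0% of the gene's TPM on Apoa5-206 in K2 and K3. By counts the remainder in K2 and K3 was mainly on Apoa5-202, at 8.35% and 11.4%, and on the 358-base Apoa5-206, which had 555 and 623 counts there and at most 3.83 in the other libraries.

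Of the other genes of lipoprotein metabolism none passed the threshold either. Of 82 such genes in 6 lists 78 were tested, 48 lay below 0 and 30 above, with a median of -0.084, 0 were called by edgeR (0% of all genes) and the groups did not overlap for 6, against 9.34% of all genes. These directions are with TMM factors, and library totals would move the median of all genes from 0.014 to 0.27. Among 12 other apolipoproteins 10 lay below 0 with a median of -0.29. Saa1 and Saa4, serum amyloid proteins of high density lipoprotein, had the smallest p there, with log2 differences of -1.42 and -0.61. That of Saa1 was -0.58 without C2 and -2.27 without K1, and that of Saa4 -0.39 without C3. All 8 lipases and lipase regulators lay below 0 with a median of -0.55, where Angptl8, an inhibitor of lipoprotein lipase, had -1.29 and Lpl, that lipase, -0.74. Angptl8 measured 253, 60.5 and 52.7 CPM in controls and 54.8, 34.1 and 61.0 in K1 to K3, and its difference was -0.18 without C1.

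Among 17 genes of particle assembly, export and Apob mRNA editing 11 lay below 0 with a median of -0.092. Cideb, which lipidates very low density lipoprotein, measured 330, 271 and 321 CPM in controls and 242, 170 and 137 CPM in K1 to K3, every knockout-labelled library below every control (log2 difference -0.75, SE 0.26, edgeR adjusted p = 0.84). A1cf, the cofactor of the enzyme that edits Apob mRNA, had a log2 difference of 0.84. Of 9 receptors and uptake genes 7 lay above 0 with a median of 0.16, with Mylip at 0.48 and Lrp1, a remnant receptor, at 0.27 (-0.011 with the length and GC trend removed). The 8 genes of high density lipoprotein remodelling were divided 4 to 4, with Scarb1, the receptor for that particle, at 0.47 and Abcg1, a cholesterol exporter, at -0.42 (0.069 in TPM and 0.11 without C3). Of 24 transcription factors with known apolipoprotein targets 13 lay below 0 with a median of -0.045. Foxa2, a factor of hepatocyte gene control, had a log2 difference of 0.62 (SE 0.23, edgeR adjusted p = 0.84).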

How the data were processed

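Poly-A RNA of 6 mouse livers was sequenced as read pairs, per the labels' protocols. The deposited files give estimated counts and TPM for 115221 transcripts, 1 library per file, with the columns that Salmon writes, per the file headers, and no version or options are stated there. The TPM values deposited by the authors are scaled to the same total in each library. Bowtie2 2.2.5, RSEM 1.2.8, DESeq and GRCm38 are named without a role, per the submitters' processing notes. Identifiers of 113664 transcripts matched GENCODE M21 without their version and 1557 were left out.

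Estimated counts were summed per gene and rounded. Genes and transcripts passed filterByExpr and TMM scaling before edgeR's quasi-likelihood test (edgeR 4.0.16, R 4.3.3), which was two-sided. P-values were adjusted by Benjamini-Hochberg over all features and called under 0.05. A standard error is the absolute log2 difference divided by the square root of F; intervals use 4 residual and 4.37 prior degrees of freedom. Transcript shares were compared with exact permutation tests. Without stated use of strand, overlapping genes cannot be told apart. The labels' design text calls the animals biological replicates. Of these tests, the edgeR test on genes was tested on simulated data, and the outcome is not given here. The members and gene lists were chosen with earlier results of these data known. Genes named are all members, the 2 of each list with the smallest p (1 of them is not reported here), the 3 that follow the member with the smallest p, and G3bp1. Alternatives were DESeq2 1.42.0, limma 3.58.1 (voom, and log2(TPM + 1)), RLE or no size factors, no filter on low counts, removal of the length and GC trend (loess, span 0.5, degree 2), a library division term, a replicate block and each library left out.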

Additional observations from a re-analysis of the deposited data

How the results depend on the processing

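No apolipoprotein gene passed the threshold in the 15 alternatives to the gene fit and no transcript in the 10 alternatives to the transcript fit, of which the library division as a term on transcripts was added after seeing the data. Over all genes DESeq2 called 10 and the fits that left out 1 library called 0 to 3, the 3 without K1. Of 150 log2 differences of members under alternatives, 132 kept their direction and 18 did not. With library totals Apoa1 was 0.10 and G3bp1 0.075. In TPM Apoa1 was 0.10, Apoa4 0.54, Apoe 0.19, Apoh 0.015, G3bp1 0.15 and Abcg1 0.069. With the length and GC trend removed Apoa1 was 0.11, Apoe 0.079, Apoa5 -0.034 and Lrp1 -0.011. For Apoa4, limma voom gave 0.21 and the library division term 0.86. With 1 library left out the ranges were -0.59 to 0.16 for Apoa1, -1.15 to 1.24 for Apoa4, -0.044 to 0.16 for Apoa5, -0.061 to 0.56 for Apob, -1.06 to 0.00034 for Apoc2 and -0.66 to 0.11 for Abcg1. The share of the leading transcript differed by -2.41 to 0.24 percentage points for Apoa2, -9.59 to 9.30 for Apoc2, -11.6 to 6.32 for Apoc3 and -0.0020 to 0 for Apoh, and the summed share of the 10 genes by -1.90 to 0.030. The cause of these changes was not tested. With the replicate number as a block Apoa4 was 0.50, and no gene was called. Same-numbered libraries deviated from their group means with r = 0.20, 0.27 and -0.14, so no pairing by number was visible. So few correlations cannot settle whether the animals were paired. Of the 9 pairs of a control and a knockout-labelled library the closest was C2 with K3 (r = 0.34).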
